A study of Mus musculus with 48 samples.

Results

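The genes described here are 9 members of the tumour necrosis factor (TNF) superfamily, 6 ligands (Tnf, Tnfsf9, Tnfsf10, Tnfsf13b, Tnfsf14 and Tnfsf15) and 3 receptors (Tnfrsf1a, Tnfrsf1b and Tnfrsf9), in cultured mouse macrophages. They were picked by gene symbol, and each was read by 1 probe set of an Affymetrix expression array that named 19505 genes. All 9 of the 9 were measured on all 48 arrays. Kupffer cells, which are liver-resident macrophages, were isolated from male Balb/c mice through the surface antigen that Adgre1 encodes, and monocytic macrophages were grown from blood monocytes that carried CD115 and came from the animals whose livers were used. Every culture spent 1 preliminary day in MCSF (macrophage colony-stimulating factor), and then 3 days or 1 day under 1 of 4 conditions. These were HGF (hepatocyte growth factor), Ito cells (the stellate cells of the liver), CD146 cells (sinusoidal endothelial cells of the liver), or further MCSF as the control. Each of the 16 groups (2 cell types, 4 conditions, 2 times) had 3 arrays. The labels call them biological replicates without naming the animals. The p-values therefore rest on the spread between these cultures, pooled for each gene over all 16 groups, and 3 arrays a group limit the precision. The age of the mice, whether added cells were taken away before lysis, and whether an addition was given on top of MCSF are not given in the sources used here.

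TNF superfamily ligands are made mostly as membrane proteins that work as trimers and cluster their receptors on a neighbouring or the same cell. Macrophages are a main source of TNF, which acts through TNFR1 (Tnfrsf1a), carried by nearly all cells and able to signal death as well as inflammation, and through TNFR2 (Tnfrsf1b), carried mainly by immune and endothelial cells. Both receptors reach the transcription factor NF-kB through TRAF and cIAP adaptor proteins, and NF-kB in turn drives several genes of the pathway.

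The promoters of Tnfrsf9 and Tnf are shown because the group means of these members spanned the most on the log2 scale, by 9.40 for Tnfrsf9 and by 6.03 for Tnf. Each run holds the 250 bases before an annotated transcript start, read 5′ to 3′ on the gene's strand, from RefSeq on build GRCm38.p6. The deposited files name no build, so these positions are RefSeq's. Capitals mark matches to the NF-kB consensus motif, searched on both strands.
Tnfrsf9, second start, chr4:150927749-150927998, plus strand: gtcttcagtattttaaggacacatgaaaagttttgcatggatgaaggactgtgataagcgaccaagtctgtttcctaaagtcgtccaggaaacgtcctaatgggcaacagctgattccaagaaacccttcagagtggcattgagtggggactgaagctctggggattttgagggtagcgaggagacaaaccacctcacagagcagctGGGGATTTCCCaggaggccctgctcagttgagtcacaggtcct
Tnf, chr17:35202008-35202257, minus strand: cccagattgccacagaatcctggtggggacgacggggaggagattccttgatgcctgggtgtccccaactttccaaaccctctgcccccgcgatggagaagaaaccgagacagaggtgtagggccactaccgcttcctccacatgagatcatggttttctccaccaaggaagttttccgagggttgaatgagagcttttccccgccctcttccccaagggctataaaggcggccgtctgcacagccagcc
The Tnfrsf9 run holds 3 overlapping matches that lie 43 to 33 bases before the start. The window of its first start held none and is not shown. Of the members, 8 had a window in the table (all but Tnfsf9), and Tnfrsf9 was the 1 with a match in any of its windows, as had 8.23% of the 27025 genes in the table. Among all 32851 windows, 2382 (7.25%) held a match. A match describes these letters only.

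Levels are the authors' log2 signals, and levels of different probe sets are not compared. The mean of the array's negative control probes was 5.18 to 6.02 across the groups, and their 95th percentile was 8.74 to 10.21. Tnfrsf1a varied least of the 9, with group means of 11.77 to 12.96. Tnfrsf1b (9.88 to 15.12) and Tnf (7.98 to 14.00) also lay above the negative control mean on all 48 arrays. Tnfrsf9 reached 13.45 on the first day and lay below the negative control mean on 24 arrays, those of the 8 groups of 3 days. Tnfsf14 spanned 4.94 to 9.62, with 5 groups below that mean. Tnfsf9 spanned 4.74 to 8.72, Tnfsf10 4.57 to 7.77, and Tnfsf15 4.68 to 7.20, with 3, 5 and 11 groups below it. Tnfsf13b spanned 3.40 to 8.55 and lay below it in 15 of 16 groups. No group mean of these last 4 members reached 8.74, the lowest of the percentiles. Where 1 of 2 groups compared lay below the negative control mean, the fitted difference is no measured size, and a size counted from that mean follows it as "at least". Where both did, no size is given. Differences between responses and those in the plots are fitted values throughout.

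**Figure D1:**
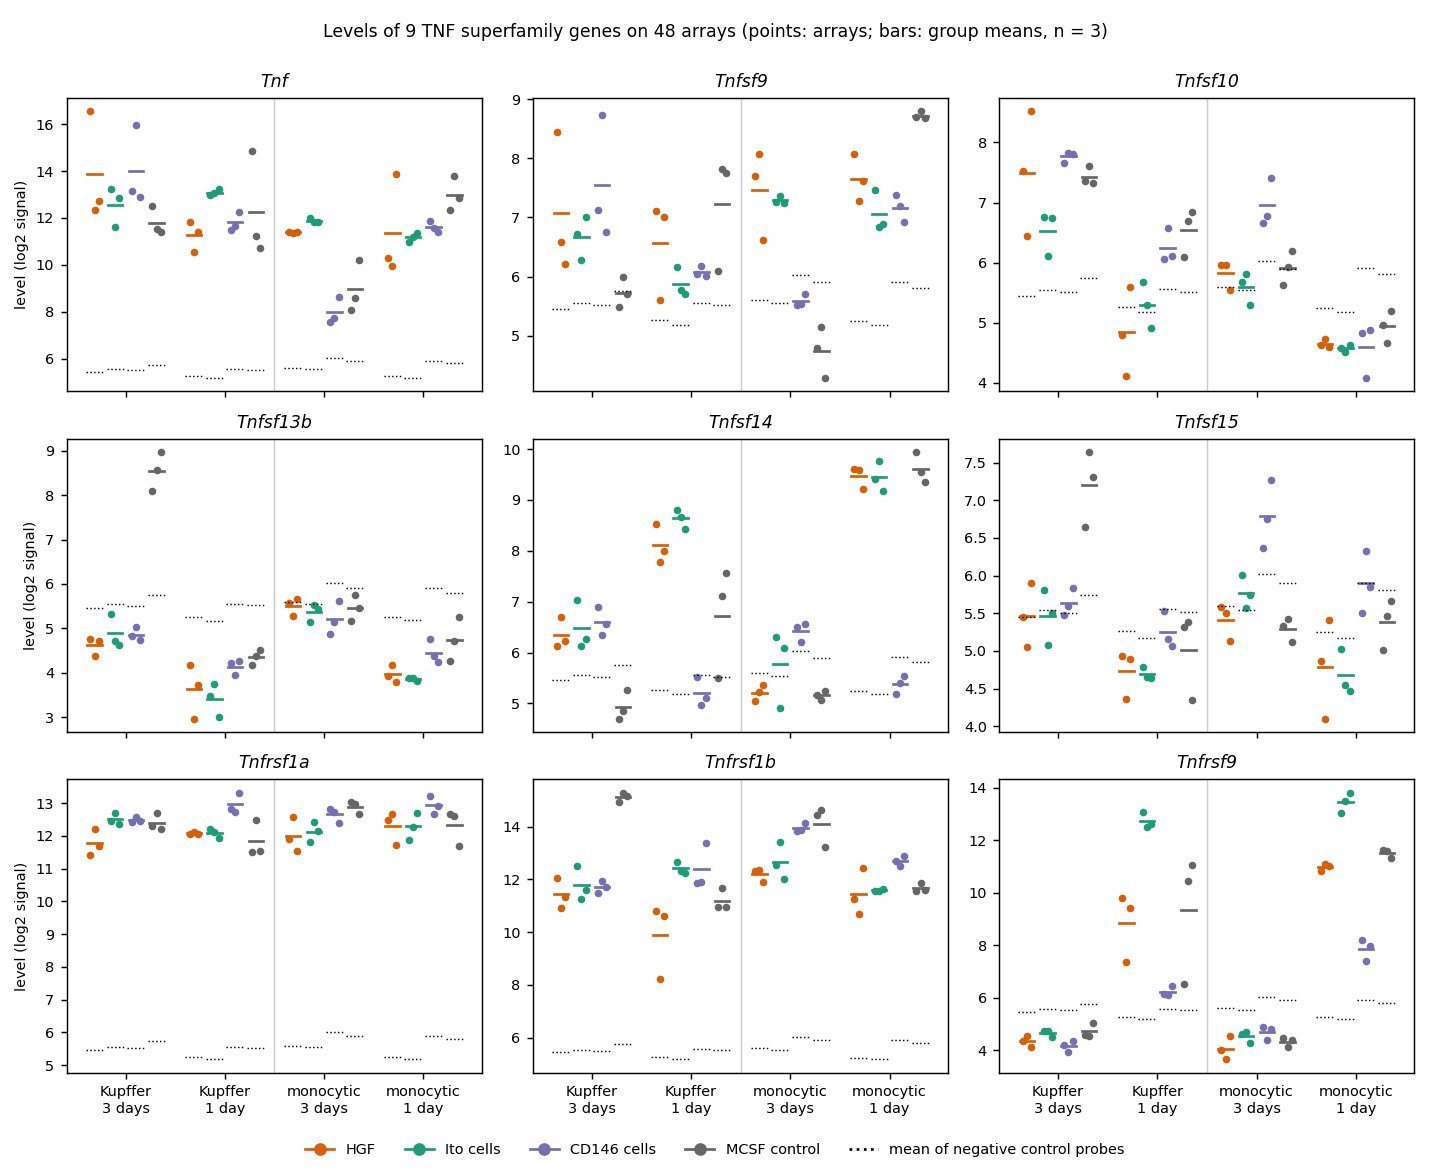
Log2 signal (y axis) of each member in the 16 groups (x axis), with a point per array, a bar at the group mean and a dotted line at the mean of the negative control probes. Tnfrsf9 lies between 4.05 and 4.72 as a group mean in all groups of 3 days, and Tnfsf13b stands above the dotted line in the Kupffer controls of 3 days.

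When the 16 group means of a member were put in order, most neighbours had overlapping arrays. All 15 neighbouring pairs overlapped for Tnfsf10 and Tnfrsf1a, 14 for Tnf, Tnfsf13b and Tnfsf15, and 13 for Tnfsf9 and Tnfsf14. For Tnfrsf9, 11 of 15 overlapped. Its order ran from monocytic macrophages with Ito cells at 1 day (13.45) through Kupffer cells with Ito cells (12.73), monocytic controls (11.51), monocytic HGF (10.97), Kupffer controls (9.34), Kupffer HGF (8.85), monocytic CD146 (7.86) and Kupffer CD146 cultures (6.23) to the groups of 3 days.

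In Kupffer controls of 1 day, replicate 1 stood apart from the other arrays of its group, as did replicate 2 of Kupffer HGF at 1 day and replicate 3 of the monocytic controls of 3 days. These 3 arrays were fixed by name, with no numeric rule. The 9 measured macrophage markers lay above the negative controls in all 16 groups. In Kupffer cultures of 3 days their mean was 13.67 to 14.14 with HGF and 14.09 to 14.23 with Ito cells. It was 13.79 to 13.81 with CD146 cells, against 16.23 to 16.52 in Kupffer controls. In these comparisons Tnfsf13b, Tnfsf15, Tnfrsf1b and NF-kB genes were lower. In monocytic macrophages of 3 days the macrophage marker mean was at most 15.17 with HGF and 15.22 with Ito cells, against at least 15.55 in controls. Tnfrsf1b and NF-kB genes were called lower there too. With CD146 cells that mean was 15.64 to 15.76, within the range of the monocytic controls. Tnfrsf1b was not called lower there, and 1 NF-kB gene was. Markers of other cells moved with the groups too. The mean of 11 sinusoidal endothelial markers was 7.51 to 10.27 in Kupffer controls of 1 day, but 5.85 to 5.99 with Ito cells and 5.99 to 6.13 with CD146 cells at that time. At 3 days the mean of 9 cell cycle genes was 12.30 to 13.11 over the Kupffer arrays with an addition, against 7.31 to 7.46 in Kupffer controls. The mean of 5 cholangiocyte markers was 6.18 to 8.87 there, against 3.46 to 3.62. The mean of 9 neutrophil markers was 8.79 to 9.77 in Kupffer cultures of 3 days with Ito cells, against 5.81 to 6.14 in controls, and that of 5 B cell markers ran from 3.93 to 10.32 among the Kupffer controls of 1 day. In monocytic macrophages of 3 days the cell cycle mean was 10.87 to 11.58 with HGF, 11.52 to 11.99 with Ito cells and 7.09 to 7.61 with CD146 cells, against 7.22, 7.43 and 12.11 in controls. The controls at 7.22 and 7.43 lay below all arrays with HGF and Ito cells, and the 1 at 12.11 lay above them. With these additions Tnfsf9 was called higher and Tnf lay above all controls. The mean of 12 Ito cell markers was 4.38 to 5.16 with the 3 additions there, against 5.64 to 6.52 in controls. In whole cultures, fewer cells of a type and less RNA per cell cannot be told apart, and the part of these markers in the results was not tested.

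Differences below are log2 differences ± the standard error from 1 limma fit over all 48 arrays, with p-values adjusted by Benjamini-Hochberg over the 19505 genes, and a call needs an adjusted p under 0.05. That fit takes 1 spread per gene for all groups, so the standard error does not follow the groups compared. For Tnf the standard deviation of a group ran from 0.03 (monocytic HGF, 3 days) to 2.32 (Kupffer HGF, 3 days). In some comparisons the median gene moved by over 0.1. It moved by -0.17 and -0.24 for HGF and Ito cells on Kupffer cells at 1 day, by 0.11 for Ito cells on Kupffer cells at 3 days, and by -0.55 and -0.28 for HGF and Ito cells on monocytic macrophages at 1 day. Between cell types it moved by 0.40 with HGF at 1 day and by -0.12 with CD146 cells at 3 days, and for Ito against CD146 cells at 1 day by -0.27 in Kupffer cells and -0.30 in monocytic macrophages. Between 3 days and 1 day it moved by 0.13 to 0.71. In these comparisons the change is given relative to that median gene, and the adjusted p is that of the difference before this step, called the fitted difference. Sizes given as "at least" are counted from levels, also before this step. When only the arrays compared were fitted, no member was called for HGF or CD146 cells on Kupffer cells at 1 day, and neither were those for Ito cells on Kupffer cells at 1 day for Tnfsf9, Tnfsf13b, Tnfsf14 and Tnfrsf9 (adjusted p = 0.0542 to 0.557).

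Tnf, the ligand of both TNFR1 and TNFR2, was set apart by 1 contrast between cell types at 3 days. With CD146 cells, Kupffer cells had 13.13, 15.96 and 12.91, whereas monocytic macrophages had 7.57, 7.73 and 8.62. All 3 Kupffer arrays were above all 3 monocytic ones, by 6.14 ± 0.87 relative to the median gene (adjusted p = 4e-07). In monocytic macrophages at 3 days, Tnf was 12.02, 11.82 and 11.82 with Ito cells and 11.41, 11.35 and 11.39 with HGF, against 8.07, 8.60 and 10.21 in their controls. Both additions lay above all control arrays, and Ito cells passed the test (2.92 ± 0.87, adjusted p = 0.0182) while HGF did not (2.42 ± 0.87, adjusted p = 0.0572). HGF did pass after median centring, without the dimmest genes, with array weights, without the 3 arrays that stand apart, with only the arrays compared and without control replicate 3 (adjusted p = 0.00376 to 0.0497). Control replicate 3, with the highest Tnf of the controls (10.21), is among those 3 arrays. The call for Ito cells was lost without control replicate 1 (2.48, adjusted p = 0.13), control replicate 2 (2.74, adjusted p = 0.0872) or Ito replicate 1 (2.86, adjusted p = 0.0594). Against CD146 cells, Ito cells gave 3.91 ± 0.87 more (adjusted p = 0.00134).

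The low monocytic groups had high Tnf on the first day. Monocytic controls had 8.07, 8.60 and 10.21 at 3 days, against 12.36, 13.77 and 12.86 at 1 day, a fall relative to the median gene of -4.17 ± 0.87 (adjusted p = 0.00035). With CD146 cells they had 7.57, 7.73 and 8.62 at 3 days, against 11.85, 11.56 and 11.39 at 1 day (-3.81 ± 0.87, adjusted p = 0.00138). Neither pair of groups overlapped. No addition to monocytic macrophages moved Tnf past the threshold at 1 day. Ito cells gave 10.97, 11.18 and 11.36, and these and the CD146 arrays lay below all controls. HGF gave 10.31, 9.95 and 13.86. With only the arrays compared, Ito cells (fitted difference -1.82, adjusted p = 0.00108) and CD146 cells (-1.39, adjusted p = 0.0118) were called lower. So was HGF without its replicate 3 (-2.86, adjusted p = 0.0135), and Ito cells and HGF with array weights. In Kupffer controls Tnf was 12.50, 11.51 and 11.40 at 3 days, against 14.87, 11.21 and 10.73 at 1 day, where the groups overlapped and no call was made. No addition to Kupffer cells moved Tnf past the threshold at either time. At 3 days its values were 16.54, 12.36 and 12.73 with HGF (2.07 ± 0.87, adjusted p = 0.0716), 13.23, 11.63 and 12.85 with Ito cells, and 13.13, 15.96 and 12.91 with CD146 cells (2.20 ± 0.87, adjusted p = 0.0558). The difference with CD146 cells passed after quantile normalization, without the dimmest genes, with array weights, without the 3 arrays that stand apart and with only the arrays compared (adjusted p = 0.00319 to 0.0426), and without control replicate 1 or CD146 replicate 1 or 3 (adjusted p = 0.0327 to 0.0485). That with HGF passed without the 3 arrays that stand apart (adjusted p = 0.0209) and without HGF replicate 2 or 3 (adjusted p = 0.0218 and 0.0374), and Ito cells at 1 day passed with array weights (adjusted p = 0.00783). The high value of HGF replicate 1 carried the higher Tnf of Kupffer HGF cultures. Against monocytic HGF cultures of 3 days the difference was 2.50 ± 0.87 (adjusted p = 0.0349), and it was 1.16 (adjusted p = 0.396) without that array. Against Kupffer HGF cultures of 1 day the change was 2.31 ± 0.87 (adjusted p = 0.0133), and the fitted difference was 1.28 (adjusted p = 0.25) without it. Other single arrays also ended these calls, each monocytic HGF array in the first case (adjusted p = 0.0728 to 0.0827) and Kupffer HGF replicate 2 of 1 day in the second (adjusted p = 0.0667), and so did array weights (adjusted p = 0.0547 and 0.0598), with quantile normalization ending the second call too (adjusted p = 0.0896). Between control cultures of 3 days, Kupffer cells exceeded monocytic macrophages by 2.84 ± 0.87 (adjusted p = 0.0222), a call lost without monocytic replicate 1 (2.40, adjusted p = 0.133) or 2 (2.66, adjusted p = 0.0834) or Kupffer replicate 1 (2.49, adjusted p = 0.0907).

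Tnfsf9, the ligand of the T cell costimulator CD137 (Tnfrsf9), was higher in monocytic macrophages with HGF and with Ito cells at 3 days. It was 7.70, 8.07 and 6.62 with HGF and 7.26, 7.36 and 7.25 with Ito cells, against 4.80, 5.14 and 4.28 in controls. All 6 arrays with these additions were above all control arrays. The differences were 2.72 ± 0.45 for HGF (adjusted p = 2.94e-05, at least 2.95-fold) and 2.55 ± 0.45 for Ito cells (adjusted p = 7.86e-05, at least 2.62-fold). CD146 cells left it at 5.52, 5.53 and 5.71, which was below Ito cells by a called difference (Ito minus CD146 1.71 ± 0.45, adjusted p = 0.00758, at least 2.41-fold). On the first day the monocytic controls had 8.69, 8.79 and 8.67, and their values of 3 days were at least 7.06-fold lower (-4.11 ± 0.45, adjusted p = 3.59e-09). At 1 day, Ito cells on monocytic macrophages gave 7.47, 6.83 and 6.89, all below the controls (-1.37 ± 0.45, adjusted p = 0.0102, but 0.0526 after quantile normalization and 0.0511 after median centring), and CD146 cells gave 7.37, 7.19 and 6.92 (-1.56 ± 0.45, adjusted p = 0.0525, but 0.000154 to 0.047 under 6 other settings).

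In Kupffer cells at 3 days Tnfsf9 was 7.12, 8.74 and 6.76 with CD146 cells, 8.44, 6.58 and 6.21 with HGF and 6.71, 6.28 and 7.0 with Ito cells, against 5.49, 5.99 and 5.70 in controls. Every array with an addition was above every control. CD146 cells (1.81 ± 0.45, adjusted p = 0.00154, at least 3.31-fold) and HGF (1.35 ± 0.45, adjusted p = 0.0193, at least 2.41-fold) passed the test. Ito cells did not (adjusted p = 0.125), though they did without the 3 arrays that stand apart (adjusted p = 0.0484) and with only the arrays compared (adjusted p = 0.01). The highest array of each group decided both calls, since without CD146 replicate 2 the difference was 1.21 (adjusted p = 0.0524) and without HGF replicate 1 it was 0.67 (adjusted p = 0.314). The HGF call was also lost without control replicate 1 (1.23, adjusted p = 0.0685) or 3 (1.34, adjusted p = 0.051), with array weights (0.72, adjusted p = 0.148) and with only the arrays compared (adjusted p = 0.0604). Between cell types with CD146 cells at 3 days, Kupffer cells were higher by 2.07 ± 0.45 (adjusted p = 0.000685, at least 2.86-fold). At 1 day Kupffer controls had 6.09, 7.81 and 7.76, and their lower level at 3 days was called, but not under 3 other settings (adjusted p up to 0.065). Ito cells gave 6.16, 5.77 and 5.70 at 1 day, called lower, but not under 7 other settings (adjusted p up to 0.157). With CD146 cells it was 6.04, 6.19 and 6.01, called lower under other settings only (adjusted p = 2.29e-05 to 0.0171).

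Tnfsf10 encodes TRAIL, a ligand that can trigger cell death through its receptors. It was called higher at 3 days than at 1 day in all 8 pairs of groups, and in 3 of them also after quantile normalization and median centring. Kupffer HGF cultures had 7.52, 6.45 and 8.52 at 3 days, against 4.80, 4.12 and 5.60 at 1 day (2.35 ± 0.33, adjusted p = 2.71e-08, at least 4.35-fold). Monocytic CD146 cultures had 6.67, 6.78 and 7.41 at 3 days, against 4.84, 4.08 and 4.89 at 1 day (2.17 ± 0.33, adjusted p = 5.3e-07, at least 2.07-fold). Kupffer CD146 cultures had 7.66, 7.83 and 7.81 at 3 days, against 6.06, 6.57 and 6.11 at 1 day (1.36 ± 0.33, adjusted p = 0.000544). None of these 3 pairs overlapped. The other 5 changes were 0.47 to 0.84 relative to the median gene, lowest in monocytic HGF cultures. Counted from levels, monocytic HGF, Ito and control cultures were at least 1.49-fold, 1.33-fold and 1.08-fold higher, sizes that include the shift of the median gene. The adjusted p of these 5 changes was 0.177 to 0.684 after quantile normalization and 0.051 to 0.521 after median centring. Of these, the call in monocytic Ito cultures was lost without Ito replicate 2 of 3 days (adjusted p = 0.0512). The call in Kupffer controls was lost without replicate 1 of 1 day (fitted difference 0.66, adjusted p = 0.185) or any 1 array of 3 days (adjusted p = 0.0591 to 0.115), and the call in monocytic controls without replicate 2 of 1 day or replicate 2 or 3 of 3 days (adjusted p = 0.0564 to 0.106).

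Kupffer cells had more Tnfsf10 than monocytic macrophages in controls at both times. At 3 days the controls had 7.36, 7.60 and 7.32 in Kupffer cells, against 5.63, 5.93 and 6.19 in monocytic macrophages (1.51 ± 0.33, adjusted p = 0.000918). At 1 day they had 6.10, 6.69 and 6.84 in Kupffer cells, against 4.97, 4.66 and 5.20 in monocytic macrophages (1.60 ± 0.33, adjusted p = 0.000462, at least 1.67-fold). No Kupffer array fell among the monocytic ones. The same direction was called with HGF at 3 days (1.67 ± 0.33, adjusted p = 0.000171) and with CD146 cells at 1 day (1.65 ± 0.33, adjusted p = 0.00053, at least 1.27-fold). On the first day, HGF and Ito cells lowered Tnfsf10 in Kupffer cells, to 4.80, 4.12 and 5.60 with HGF (-1.53 ± 0.33, adjusted p = 0.000771, at least 2.25-fold) and to 5.68, 5.30 and 4.91 with Ito cells (-1.0 ± 0.33, adjusted p = 0.00525). The call for Ito cells was not made after quantile normalization (adjusted p = 0.0699) or median centring (adjusted p = 0.075). At 3 days Ito cells gave 6.75, 6.11 and 6.74 (-1.01 ± 0.33, adjusted p = 0.0396), a call lost without any 1 control array (adjusted p = 0.0616 to 0.127) or Ito replicate 2 (fitted difference -0.68, adjusted p = 0.198). In monocytic macrophages at 3 days Ito cells had less Tnfsf10 than CD146 cells (-1.36 ± 0.33, adjusted p = 0.00355).

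Tnfsf13b encodes BAFF, a survival factor for B cells, and stood out in 1 group. Kupffer controls of 3 days had 8.10, 8.56 and 8.98. Kupffer cells of 3 days had 4.75, 4.38 and 4.71 with HGF, 5.31, 4.72 and 4.63 with Ito cells and 4.82, 5.03 and 4.73 with CD146 cells. All 9 arrays with an addition lay below their negative control means and below every control. Tnfsf13b fell by -3.93 ± 0.26 with HGF (adjusted p = 1.46e-15), -3.77 ± 0.26 with Ito cells (adjusted p = 1.34e-14) and -3.69 ± 0.26 with CD146 cells (adjusted p = 9.29e-15). Counted from the negative controls it was at least 8.55-fold, 7.99-fold and 8.20-fold lower in these 3 comparisons, which share their control arrays. Monocytic controls of 3 days had 5.16, 5.75 and 5.46, so that the Kupffer controls were higher by 3.09 ± 0.26 (adjusted p = 3.91e-12, at least 6.27-fold). Kupffer controls of 1 day had 4.18, 4.38 and 4.50, and those of 3 days exceeded them by 4.05 ± 0.26 (adjusted p = 2.47e-16, at least 8.17-fold). In the other groups all values were at the level of the negative controls.

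Tnfsf14 encodes LIGHT, which binds the receptors HVEM and LTBR. It was high on the first day in all monocytic groups but the one with CD146 cells. It was 5.19, 5.40 and 5.53 with CD146 cells at 1 day, against 9.94, 9.56 and 9.35 in monocytic controls, a fall of -4.24 ± 0.33 (adjusted p = 6.55e-12, at least 13.1-fold). HGF gave 9.61, 9.60 and 9.21 and Ito cells 9.40, 9.77 and 9.18, which overlapped the controls. In Kupffer cells at 1 day Tnfsf14 was 8.80, 8.67 and 8.44 with Ito cells, 8.53, 7.79 and 8.0 with HGF and 5.52, 4.98 and 5.11 with CD146 cells, against 5.50, 7.12 and 7.56 in controls. Ito cells and HGF lay above all controls, and the CD146 arrays overlapped the controls through control replicate 1. The changes were 2.15 ± 0.33 for Ito cells (adjusted p = 4.36e-05), 1.55 ± 0.33 for HGF (adjusted p = 0.00446) and -1.52 ± 0.33 for CD146 cells (adjusted p = 0.00298, at least 2.24-fold). Without control replicate 1 the HGF call was lost (fitted difference 0.77, adjusted p = 0.0636), and without control replicate 3 the CD146 call was lost (-1.11, adjusted p = 0.0594). Ito cells exceeded CD146 cells by 3.71 ± 0.33 in Kupffer cells (adjusted p = 2.14e-10, at least 8.44-fold) and by 4.38 ± 0.33 in monocytic macrophages (adjusted p = 5.86e-12, at least 11.7-fold). Controls of 1 day differed between cell types (Kupffer minus monocytic -2.89 ± 0.33, adjusted p = 1.46e-08), as did HGF cultures (-1.77 ± 0.33, adjusted p = 0.000891).

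With time Tnfsf14 went in opposite directions. Relative to the median gene it fell between 1 and 3 days by -4.98 with HGF, -4.12 with Ito cells and -4.59 in controls of monocytic macrophages, and by -2.06, -2.67 and -1.94 in the Kupffer cultures of these conditions (each ± 0.33, adjusted p of 3.71e-05 or smaller). Where the level of 3 days lay below the negative control mean, it was at least 14.7-fold lower in monocytic HGF cultures, 13.2-fold in monocytic controls and 1.97-fold in Kupffer controls. With CD146 cells it rose, by 1.24 ± 0.33 in Kupffer cells (adjusted p = 0.00135, at least 2.06-fold) and by 0.87 ± 0.33 in monocytic macrophages (adjusted p = 0.0151, at least 1.43-fold). The monocytic call was lost without CD146 replicate 1 of 1 day (adjusted p = 0.0611) or replicate 3 of 3 days (adjusted p = 0.0555), after quantile normalization (adjusted p = 0.0805) and after median centring (adjusted p = 0.13). At 3 days Kupffer cells had 6.12, 6.71 and 6.22 with HGF, 7.03, 6.13 and 6.27 with Ito cells and 6.89, 6.35 and 6.56 with CD146 cells, against 4.70, 4.85 and 5.26 in controls. All 9 arrays with an addition were above all controls, by 1.41, 1.43 and 1.66 (each ± 0.33, adjusted p = 0.000781, 0.000306 and 9.71e-05, at least 1.52-fold, 1.66-fold and 1.81-fold). In monocytic macrophages of 3 days CD146 cells gave 6.51, 6.20 and 6.56, against 5.17, 5.07 and 5.25 in controls (1.26 ± 0.33, adjusted p = 0.0269, at least 1.44-fold). That call was lost in 5 of the 6 fits that left out 1 of these arrays (adjusted p = 0.05 to 0.115), all but the one without control replicate 3.

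Tnfsf15 encodes TL1A, a costimulator of T cells. Like Tnfsf13b it was at its highest in Kupffer controls of 3 days, with 6.64, 7.64 and 7.32. Kupffer cells of 3 days had 5.45, 5.05 and 5.90 with HGF (-1.73 ± 0.30, adjusted p = 1.08e-05), 5.81, 5.08 and 5.50 with Ito cells (-1.85 ± 0.30, adjusted p = 1.28e-05, at least 3.03-fold) and 5.47, 5.60 and 5.83 with CD146 cells (-1.56 ± 0.30, adjusted p = 5.78e-05). No array with an addition reached a control. In monocytic macrophages CD146 cells acted in the other direction, with 6.37, 6.75 and 7.27 against 5.33, 5.43 and 5.11 in controls (1.51 ± 0.30, adjusted p = 0.00176, at least 1.86-fold). Monocytic macrophages with CD146 cells also exceeded Kupffer cells with CD146 cells, which gave a Kupffer minus monocytic difference of -1.04 ± 0.30 (adjusted p = 0.0025), while in controls the difference was 1.91 ± 0.30 (adjusted p = 5.94e-06, at least 2.46-fold). Kupffer controls of 3 days were above those of 1 day by 2.04 ± 0.30 (adjusted p = 2e-07, at least 3.21-fold).

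**Figure D2:**
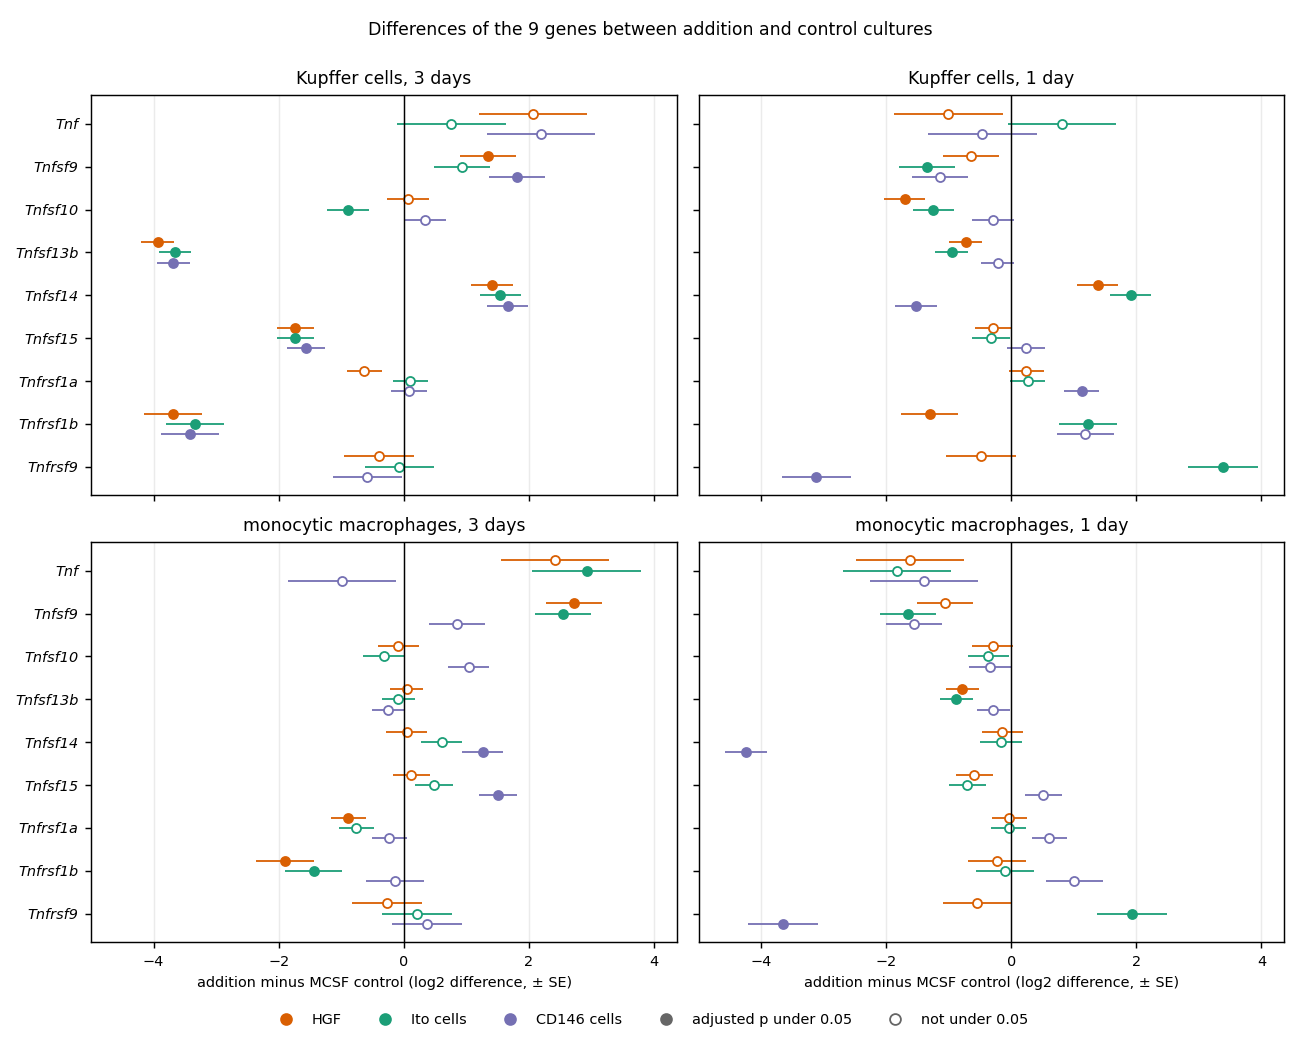
Log2 difference (x axis) of each member between an addition and the MCSF control in Kupffer cells and monocytic macrophages at 3 days and 1 day, before any shift of the median gene is taken off, with bars of 1 standard error and filled points where the adjusted p was under 0.05. In Kupffer cells of 3 days Tnfsf13b, Tnfrsf1b and Tnfsf15 lie left of 0 under all 3 additions.

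Among the receptors, Tnfrsf1a, the receptor of soluble TNF on most cells, spanned the least. Its 48 values ran from 11.41 to 13.32. In limma it passed the threshold in none of the 8 comparisons of 3 days with 1 day (2 at an unadjusted p under 0.05) and in none of the 8 between cell types (0 at an unadjusted p under 0.05). After median centring it was lower at 3 days in 3 cultures, Kupffer HGF (-0.73, adjusted p = 0.0382), monocytic HGF (-1.16, adjusted p = 0.00189) and monocytic Ito cultures (-0.77, adjusted p = 0.0405), and lower in Kupffer than in monocytic cultures of 1 day with HGF (-0.85, adjusted p = 0.0164) and in controls (-0.74, adjusted p = 0.0465). After quantile normalization it was lower at 3 days in Kupffer HGF (-1.11, adjusted p = 0.00371) and CD146 cultures (-0.81, adjusted p = 0.0475). Without Kupffer control replicate 2 of 1 day it was higher at 3 days in Kupffer controls (0.89, adjusted p = 0.0197) and lower in Kupffer than in monocytic controls of 1 day (-0.81, adjusted p = 0.0481). In Kupffer cells of 1 day CD146 cells gave 12.81, 12.74 and 13.32, against 11.50, 12.47 and 11.52 in controls (1.13 ± 0.28, adjusted p = 0.0118). The CD146 arrays lay above the controls, but the call was lost without control replicate 1 (0.96, adjusted p = 0.0601), control replicate 3 (0.97, adjusted p = 0.0743) or CD146 replicate 3 (0.94, adjusted p = 0.108). In monocytic macrophages of 3 days HGF gave 11.91, 12.58 and 11.54, against 13.03, 12.98 and 12.67 in controls (-0.89 ± 0.28, adjusted p = 0.0291), and that call was lost without control replicate 1 (adjusted p = 0.13) or 2 (adjusted p = 0.103) or HGF replicate 1 (adjusted p = 0.0884) or 3 (adjusted p = 0.211), after median centring (adjusted p = 0.0511) and with only the arrays compared (adjusted p = 0.101).

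Tnfrsf1b, the second TNF receptor, was at its highest in MCSF controls of 3 days and lower with additions. Kupffer controls of 3 days had 14.94, 15.29 and 15.14. Kupffer cells of that time had 12.06, 10.90 and 11.33 with HGF, 12.51, 11.25 and 11.59 with Ito cells and 11.47, 11.93 and 11.71 with CD146 cells. All 9 arrays with an addition were at least 2 log2 units below every control. Tnfrsf1b fell by -3.69 ± 0.46 with HGF (adjusted p = 1.74e-08), -3.45 ± 0.46 with Ito cells (adjusted p = 1.76e-07) and -3.42 ± 0.46 with CD146 cells (adjusted p = 9.16e-08). In monocytic macrophages HGF gave 12.32, 12.34 and 11.90, Ito cells 12.52, 13.40 and 12.01 and CD146 cells 13.82, 13.88 and 14.15, against 14.43, 14.61 and 13.22 in controls. HGF lay below all controls (-1.90 ± 0.46, adjusted p = 0.00358), Ito cells overlapped them in 1 array (-1.44 ± 0.46, adjusted p = 0.0309), and CD146 cells lay within their range. The call for Ito cells was lost without control replicate 1 (adjusted p = 0.155) or 2 (adjusted p = 0.198) or Ito replicate 1 (adjusted p = 0.0959) or 3 (adjusted p = 0.198), and with only the arrays compared (adjusted p = 0.0881). With CD146 cells Kupffer cells had less Tnfrsf1b than monocytic macrophages (-2.13 ± 0.46, adjusted p = 0.000158).

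Between 1 and 3 days Tnfrsf1b rose in controls, by 3.79 ± 0.46 in Kupffer cells (adjusted p = 6.03e-09) and by 2.27 ± 0.46 in monocytic macrophages (adjusted p = 7.79e-05). Kupffer controls of 1 day had 10.94, 11.67 and 10.95, and monocytic controls of 1 day had 11.56, 11.88 and 11.61. All control arrays of 3 days were above those of 1 day. The rises in Kupffer HGF cultures (1.25 ± 0.46, adjusted p = 0.00597) and monocytic CD146 cultures (1.08 ± 0.46, adjusted p = 0.0375) were less steady. The first was lost without Kupffer HGF replicate 2 of 1 day (fitted difference 0.72, adjusted p = 0.197) or replicate 1 of 3 days (1.24, adjusted p = 0.0535) and after quantile normalization (0.61, adjusted p = 0.235). The second was lost without any 1 of its 6 arrays (adjusted p = 0.0604 to 0.112) and after median centring (0.89, adjusted p = 0.161). In Kupffer cells of 1 day the 3 HGF values were 10.81, 8.22 and 10.62 (-1.14 ± 0.46, adjusted p = 0.0436), and without HGF replicate 2 the fitted difference was -0.47 (adjusted p = 0.561). That call was also lost without control replicate 2 (adjusted p = 0.161) or 3 (adjusted p = 0.0622), after quantile normalization (adjusted p = 0.178) and after median centring (adjusted p = 0.0976). Ito cells gave 12.67, 12.33 and 12.25 there (1.47 ± 0.46, adjusted p = 0.0471), a call lost in 5 of the 6 fits without 1 of its arrays (adjusted p = 0.0768 to 0.142), all but the one without control replicate 2, and after quantile normalization (adjusted p = 0.0726).

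Tnfrsf9 encodes CD137, an inducible costimulator known on activated T cells and also found on myeloid cells. It separated the first day from the third in every culture. In Kupffer cells at 1 day it was 13.07, 12.51 and 12.60 with Ito cells, 9.78, 7.36 and 9.42 with HGF and 6.15, 6.08 and 6.45 with CD146 cells, against 6.51, 10.45 and 11.07 in controls. Ito cells lay above all controls, CD146 cells below all of them, and HGF among them. The changes were 3.63 ± 0.56 for Ito cells (adjusted p = 2.1e-05) and -3.12 ± 0.56 for CD146 cells (adjusted p = 0.000251). Control replicate 1 was lower than the other 2 controls, and without it the fitted difference was 1.97 for Ito cells (adjusted p = 0.000198), -4.53 for CD146 cells and -1.90 for HGF (adjusted p = 0.000495). With all arrays the HGF difference was -0.49 (adjusted p = 0.571), and it was also called with array weights (-1.01, adjusted p = 0.0086) and without the 3 arrays that stand apart (-1.16, adjusted p = 0.00902). In monocytic macrophages at 1 day it was 13.03, 13.49 and 13.82 with Ito cells, 10.82, 11.08 and 11.01 with HGF and 8.21, 7.40 and 7.97 with CD146 cells, against 11.63, 11.59 and 11.32 in controls. The groups did not overlap, with Ito cells highest and CD146 cells lowest. The changes were 2.22 ± 0.56 for Ito cells (adjusted p = 0.0156) and -3.65 ± 0.56 for CD146 cells (adjusted p = 3.17e-05), and the call for Ito cells was lost without control replicate 3 (1.84, adjusted p = 0.0508) or Ito replicate 3 (1.75, adjusted p = 0.069). Ito cells exceeded CD146 cells by 6.77 ± 0.56 in Kupffer cells (adjusted p = 1.14e-11) and by 5.89 ± 0.56 in monocytic macrophages (adjusted p = 1.04e-09).

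At 3 days all 24 arrays had Tnfrsf9 between 3.64 and 5.04, below the negative control mean. In Kupffer cells it was at least 145-fold lower than at 1 day with Ito cells, 10.6-fold with HGF, 1.64-fold with CD146 cells and 12.1-fold in controls. In monocytic macrophages it was at least 239-fold lower with Ito cells, 41.4-fold with HGF, 3.57-fold with CD146 cells and 48.9-fold in controls. All 8 comparisons passed the test, the one of Kupffer cells with CD146 cells at an adjusted p of 0.00448 and the others at 2.74e-05 or smaller. Between cell types on the first day, Tnfrsf9 was lower in Kupffer cells in controls (-2.17 ± 0.56, adjusted p = 0.00414), with HGF (-2.52 ± 0.56, adjusted p = 0.00196) and with CD146 cells (-1.63 ± 0.56, adjusted p = 0.0426). The call in controls was lost without Kupffer replicate 1 (-0.75, adjusted p = 0.192) and with only the arrays compared (adjusted p = 0.239), that with HGF without Kupffer HGF replicate 2 (fitted difference -1.37, adjusted p = 0.0534), and that with CD146 cells without any 1 of its 6 arrays (adjusted p = 0.0531 to 0.143).

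**Figure D3:**
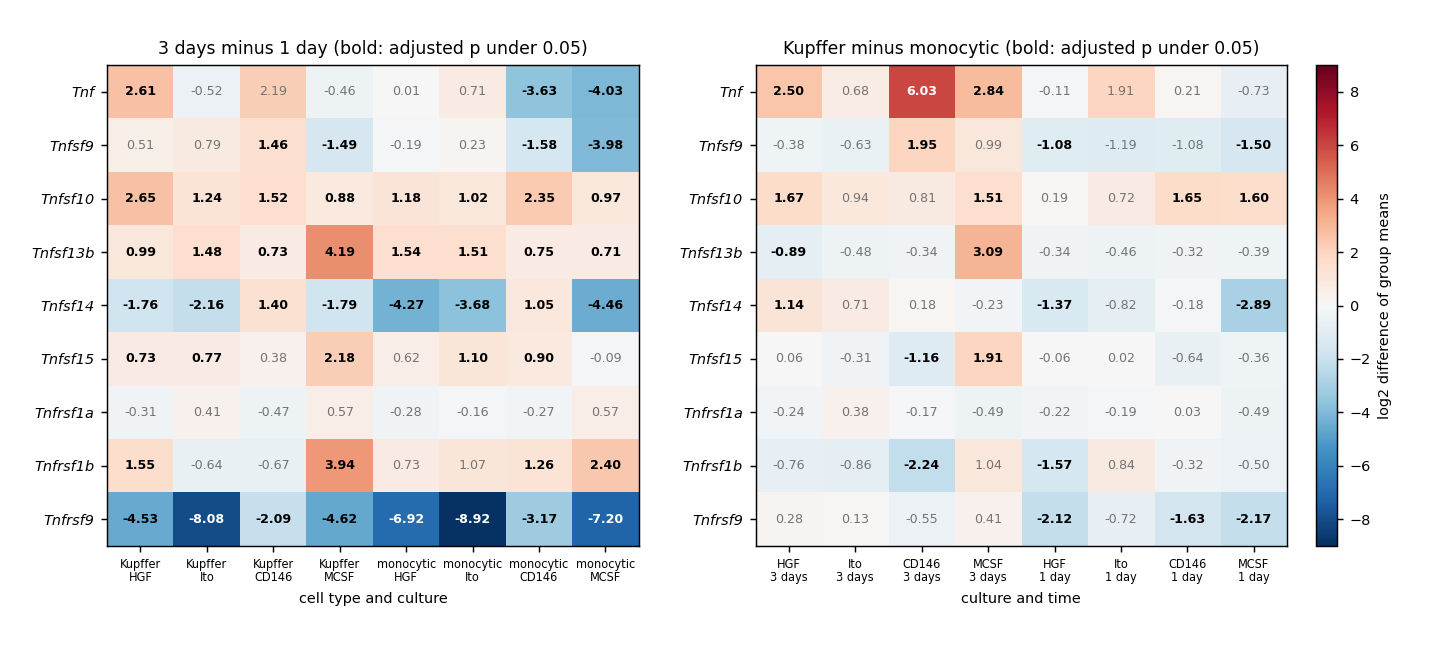
Log2 differences of each member (rows) between 3 days and 1 day in 8 cultures (left) and between Kupffer cells and monocytic macrophages in 8 conditions (right), before any shift of the median gene is taken off, with called differences in bold. Tnfrsf9 is lower at 3 days in all 8 columns, from -2.09 to -8.92.

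Over the 12 comparisons of an addition with its control, members were called higher 16 times and lower 26 times of 108 tests, and 17.4% of all gene tests in these comparisons were called. In Kupffer cells at 3 days, 5 of 9 members were called with HGF, with Ito cells and with CD146 cells, against 27.6%, 26.8% and 26.4% of all genes. In Kupffer cells at 1 day it was 4 of 9 with HGF (17.5% of all genes), 6 of 9 with Ito cells (23.5%) and 3 of 9 with CD146 cells (3.78%). In monocytic macrophages at 3 days it was 3 of 9 with HGF (13%), 3 of 9 with Ito cells (12.5%) and 2 of 9 with CD146 cells (2.4%), and at 1 day 1 of 9 with HGF (37.5%), 3 of 9 with Ito cells (15.5%) and 2 of 9 with CD146 cells (2.33%). Between 3 days and 1 day members were called higher 29 times and lower 19 times of 72, against 30.8% higher and 7.53% lower (38.3% in either direction) over all gene tests. After quantile normalization that split was 12 higher and 21 lower, and after median centring 14 higher and 23 lower. Between Kupffer cells and monocytic macrophages 11 were called higher and 11 lower of 72 (19.9% of all gene tests). With Ito cells no member was called between cell types in limma at 3 days (2 at an unadjusted p under 0.05, 8.81% of all genes called) or at 1 day (4 at an unadjusted p under 0.05, 3% of all genes called). Under other settings Tnfsf10 passed there at 3 days (adjusted p = 0.00351 to 0.046) and Tnf, Tnfsf9, Tnfsf14 and Tnfrsf1b at 1 day (adjusted p = 1.76e-05 to 0.0462). Between Ito cells and CD146 cells 6 were called higher and 7 lower of 36 (15.4% of all gene tests), with 4 lower without Kupffer Ito replicate 3 of 1 day. Of all these calls, 15 were between groups that both lay below the negative control mean. Among them are the 1 call with HGF on monocytic macrophages at 1 day (Tnfsf13b) and higher calls over time, 7 of Tnfsf13b and 1 of Tnfsf15.

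Whether an addition acted differently on Kupffer cells and on monocytic macrophages was tested as the difference between both responses. It was called in 12 of 54 member tests, 4 above 0 and 8 below 0, against 11.6% of all gene tests. Tnfsf13b differed under all 3 additions at 3 days (-3.98, -3.57 and -3.43, each ± 0.37, for HGF, Ito and CD146 cells, adjusted p of 1.72e-09 or smaller), where all monocytic groups lay below the negative control mean. Tnfsf15 differed under the same additions (-1.85, -2.22 and -3.07, each ± 0.42, adjusted p = 0.00141, 0.000229 and 3.06e-07), and its monocytic controls lay below that mean as well. Tnfrsf1b differed with CD146 cells at 3 days (-3.28 ± 0.65, adjusted p = 0.00015). These additions share their controls within each cell type.

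The other genes of the pathway were followed through 5 lists, with fitted differences given for their genes. Of 14 measured genes for NF-kB subunits and feedback, 9 were lower with HGF, 10 with Ito cells and 9 with CD146 cells in Kupffer cells at 3 days, with list medians of -1.42, -1.95 and -1.60. Among all genes 13.1%, 12.3% and 12.4% were called lower there. Nfkb2, which encodes the p100 and p52 subunit, fell by -3.07, -4.50 and -3.77 with HGF, Ito and CD146 cells. Relb, the partner of p52, fell by -2.43, -2.65 and -2.54, and Tnfaip2, a TNF-induced gene, by -3.71, -3.93 and -3.96. In monocytic macrophages at 3 days 4, 4 and 1 genes of the list were lower, against 5.46%, 6.66% and 1.18% of all genes, and Nfkb2 fell by -1.61, -2.40 and -1.28. In controls of 3 days 9 of the 14 were higher in Kupffer cells than in monocytic macrophages and none was lower (6.38% of all genes called higher).

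Of 15 measured receptor adaptors and proximal kinases, 9, 7 and 8 were lower in Kupffer cells at 3 days with HGF, Ito and CD146 cells, and none was higher. Birc3, which encodes the ubiquitin ligase cIAP2, fell by -4.17, -4.90 and -4.22, and Traf1, an adaptor bound by TNFR2, by -3.56, -3.77 and -2.35. Traf5 fell by -2.59, -2.69 and -2.40, and Map3k5, the stress kinase ASK1, by -1.76, -2.45 and -1.83. In monocytic macrophages 3, 1 and 0 of the 15 were lower, the last 2 counts being near the shares of all genes given above.

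Of 9 genes for TNF release and mRNA control, 3 were higher and 4 lower in Kupffer cells under each addition at 3 days. Among all genes 14.5%, 14.5% and 14% were called higher with HGF, Ito and CD146 cells there. Adam17, the protease that frees TNF from the membrane, fell by -1.89, -2.46 and -1.76 with HGF, Ito and CD146 cells. Zfp36, whose protein tristetraprolin destabilises Tnf mRNA, rose by 2.02, 2.16 and 2.57. The Zfp36 call with HGF was lost without control replicate 2 (1.53, adjusted p = 0.0951) or HGF replicate 1 (1.43, adjusted p = 0.107), that with Ito cells without control replicate 2 (1.67, adjusted p = 0.0664), and the value with CD146 cells was 1.70 (adjusted p = 0.0376) without CD146 replicate 2.

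Of 24 other measured TNF receptors, 5, 3 and 6 were higher and 6, 6 and 6 lower in Kupffer cells at 3 days with HGF, Ito and CD146 cells, where the higher calls with Ito cells made up a share near that of all genes. Fas, the death receptor, fell by -3.47, -3.40 and -3.34, whereas Tnfrsf11a, the receptor RANK, rose by 1.53, 1.56 and 2.41. Tnfrsf12a, the TWEAK receptor, rose by 3.23 with HGF and 2.19 with CD146 cells and stood at 0.53 with Ito cells, which was not called. Of 10 other measured ligands 0, 2 and 0 were higher and none was lower in limma. Among all genes 14.5%, 14.5% and 14% were called higher there, and 13.1%, 12.3% and 12.4% lower. In each of these groups, controls included, at most 1 of the 10 ligands lay above the negative control mean.

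**Figure D4:**
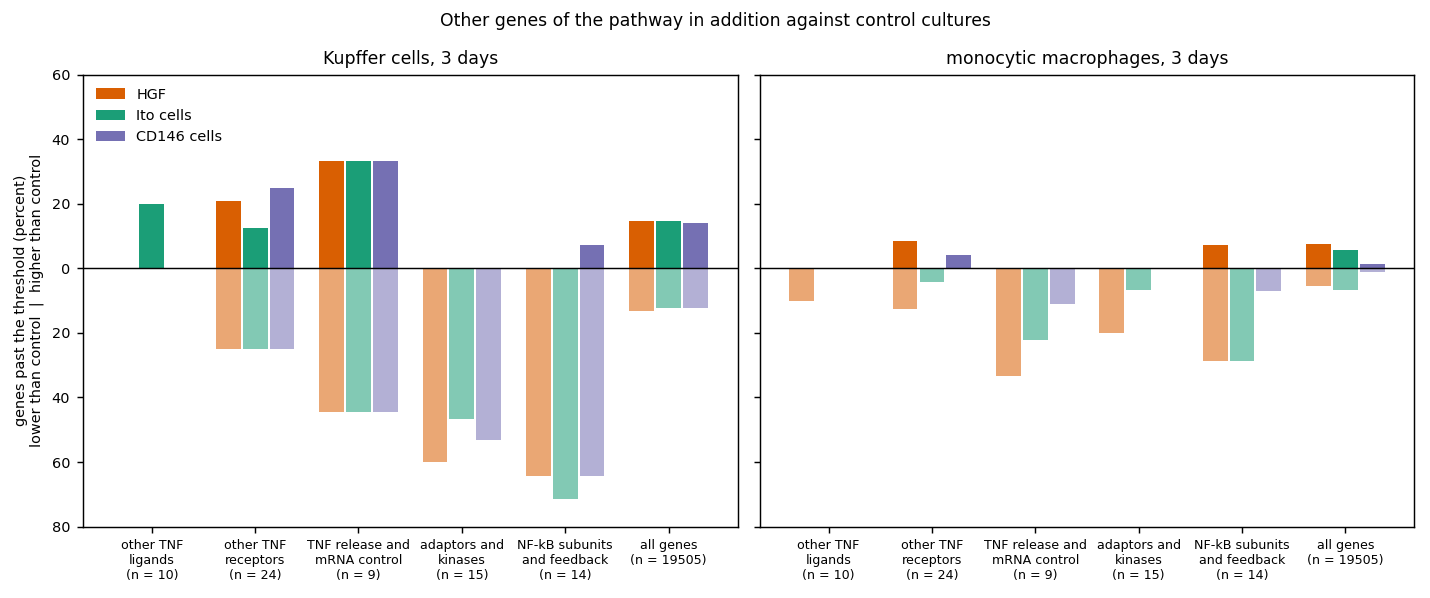
Percent of the measured genes of each list (n = 10, 24, 9, 15 and 14) and of all 19505 genes that were called higher or lower (paler) with each addition at 3 days. In Kupffer cells the bars for lower calls of the NF-kB and adaptor lists are longer than those of all genes.

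Over the 16 group means, which share arrays and controls, Tnfsf14 and Tnfrsf9 had a Pearson r of 0.85, Tnfsf13b and Tnfsf15 one of 0.83, and Tnfrsf1b one of 0.76 with Tnfsf15 and 0.75 with Tnfsf13b. Among 5974 genes that exceeded the negative controls in at least 1 group and spanned at least 2 log2 units, the pattern most like that of Tnfrsf9 was seen for Socs2, a cytokine signal inhibitor (r = 0.97), the chemokine gene Ccl17 (r = 0.97) and Ahr, the aryl hydrocarbon receptor (r = 0.97), where the median gene had r = -0.47. For Tnfrsf1b they were Mapk14, which encodes p38 (r = 0.94), Scarb2 (r = 0.93) and Naa60 (r = 0.93), and for Tnfsf13b Cfap410, Abhd3 and Ubac2 (r = 0.95 each). Tnfsf10 was most like Axl, a receptor tyrosine kinase (r = 0.93), Usp53 (r = 0.93) and Ifit2, an interferon-induced gene (r = 0.92). Tnfsf14 was most like Snx6 (r = 0.93), Nrg1 (r = 0.93) and Trim30b (r = 0.92), and Tnfsf15 like C1rb (r = 0.92), Rims3 (r = 0.89) and Gypc (r = 0.89). Tnf was most like Cct3, Tubb4b and Snrnp40 (r = 0.90 each), Tnfsf9 like Mcu (r = 0.87), Tlcd3a (r = 0.82) and Snx2 (r = 0.79), and Tnfrsf1a like Zfp217 (r = 0.78), Bin2 (r = 0.77) and Tln2 (r = 0.71).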

How the data were processed

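RNA of 48 cultures was labelled as biotinylated cRNA and hybridised to Affymetrix arrays, per the labels' protocols. The authors deposited log2 values for 28846 probe sets, made with RMA in the Transcriptome Analysis Console, per the submitters' processing notes. The genome build, and whether all arrays were normalised together, are not given in the sources used here. Of the probe sets, 6640 were controls (5222 negative) and 2634 had no symbol. The remaining 19572 gave 19505 genes, with the brightest probe set kept for the 55 genes that had several. Each member had 1.

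The deposited log2 values were used as they are. limma 3.58.1 in R 4.3.3 (with data.table, version 1.17.8) fitted 1 mean for each of 16 groups to all 48 arrays and gave 38 contrasts in 5 families, with two-sided p-values adjusted by Benjamini-Hochberg over all genes of a contrast and a threshold of 0.05. Figures were drawn with Python 3.11.15 and matplotlib 3.10.9. On simulated data for monocytic CD146 cultures of 1 day over 19505 genes, 54 of 100 genes changed 2-fold were recovered. Of 100 changed 4-fold, 92 were recovered, and 6 unchanged genes were called. The simulated spread of a gene was 1 value for all groups, so these counts do not cover spreads that differ between groups. Named were all members, the 3 genes most like each, and up to 4 genes of each other list, those called in the most addition contrasts. The members and lists were chosen with earlier results of these data known. Rela, Timp3, Zfp36l2, Tnfrsf26 and 4 ligands chosen by this rule are given in the closing section.

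Tried as alternatives were quantile normalization, median centring, leaving out the dimmest 25% of genes, a trended and robust variance, array weights, a replicate block, a mean over probe sets, a 2-fold minimum, a fit of only the arrays compared, leaving out 3 arrays that stand apart, and leaving out each array in turn. Equal replicate numbers did not pair the cultures, since deviations of equally numbered arrays correlated by -0.0103 on average and those of different numbers by 0.0055, and 1 of 120 pairs of groups had all 3 correlations over 0.1.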

Additional observations from a re-analysis of the deposited data

Results flagged for a closer look

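In 12 cases the response of a member to an addition differed between Kupffer cells and monocytic macrophages, by limma's test of the difference itself (Kupffer response minus monocytic response). Tnfsf13b differed at 3 days by -3.98 with HGF (adjusted p = 7.98e-11), -3.57 with Ito cells (adjusted p = 1.72e-09) and -3.43 with CD146 cells (adjusted p = 1.51e-09). Tnfsf15 differed at 3 days by -1.85 with HGF (adjusted p = 0.00141), -2.22 with Ito cells (adjusted p = 0.000229) and -3.07 with CD146 cells (adjusted p = 3.06e-07). Tnfrsf1b differed by -3.28 with CD146 cells at 3 days (adjusted p = 0.00015). Each of these 7 passed in every fit that left out 1 array.

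Tnfsf14 differed by 2.08 with Ito cells (adjusted p = 0.00596) and 2.72 with CD146 cells (adjusted p = 0.000538) at 1 day, though with only the arrays compared these had an adjusted p of 0.0855 and 0.0744. With CD146 cells Tnfsf14 lay below the negative control mean in both Kupffer cells (5.20) and monocytic macrophages (5.38). It was 6.72 and 9.62 in their controls, so the size of neither fall was measured. With HGF at 1 day it differed by 1.53 (adjusted p = 0.0157, or 1.17 relative to the median gene), a call lost without Kupffer control replicate 1 (0.92, adjusted p = 0.0868). With HGF at 3 days it differed by 1.37 (adjusted p = 0.0401), a call lost in 9 of 12 fits without 1 array (adjusted p = 0.0512 to 0.115), all but those without Kupffer control replicate 3, monocytic HGF replicate 3 or Kupffer HGF replicate 1, and after quantile normalization (1.15, adjusted p = 0.0933). There the controls of both cell types and the monocytic HGF group lay below the negative control mean. Tnfsf10 differed by -1.41 with HGF at 1 day (adjusted p = 0.0254, or -1.76 relative to the median gene). That call was lost without Kupffer control replicate 2 (adjusted p = 0.0535) or 3 (adjusted p = 0.0667), Kupffer HGF replicate 2 (-1.05, adjusted p = 0.12) or monocytic control replicate 2 (adjusted p = 0.0677). There all groups but the Kupffer controls lay below the negative control mean.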

How the results depend on the processing

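Of 342 member results, 137 were called, 85 of these passed in every fit without 1 array, and 73 under every setting tried. Another 65 results passed under some setting only. The replicate block kept 134 of the 137 calls, although equal numbers did not pair the cultures. Calls at 3 days against 1 day counted 29 higher, but 12 after quantile normalization and 14 after median centring, which take off shifts of the median gene. Lower calls for Ito against CD146 cells counted 7, but 4 after median centring, 4 with a 2-fold minimum, 11 with array weights and 12 with only the arrays compared. Higher calls for the difference in response counted 4, but 2 after median centring and 2 with only the arrays compared. In that last setting no gene of the array was called for HGF on Kupffer cells at 1 day (1753 at an unadjusted p under 0.05).

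Without 1 array at a time the counts ran from 14 to 20 higher and 23 to 30 lower for additions, 10 to 13 higher and 8 to 12 lower between cell types, 25 to 33 higher and 18 to 19 lower over time, 6 to 6 higher and 4 to 9 lower for Ito against CD146 cells, and 3 to 5 higher and 7 to 10 lower for the difference in response. The Tnfrsf9 difference in response to HGF at 1 day reversed, to -1.36 (adjusted p = 0.0382) without Kupffer control replicate 1, against 0.05 (adjusted p = 0.972) with it, and was 0.91 at most, without replicate 3, and the cause was not tested. Alternatives for the other pathway genes and lists were chosen after seeing the data. Signals near the negative controls limit what can be read from Tnfsf9, Tnfsf10, Tnfsf13b, Tnfsf14 and Tnfsf15, and from Tnfrsf9 at 3 days.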

Other observations

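Some single arrays had Tnf over 2 log2 units above the mean of the other arrays of their group, and they were picked after their values were seen. In Kupffer HGF cultures of 3 days, replicate 1 had Tnf at 16.54, Tnfaip3 (the NF-kB inhibitor A20) at 14.01 and Nfkbiz (a nuclear NF-kB regulator) at 11.21, where the other arrays had Tnfaip3 at 11.11 and 11.71 and Nfkbiz at 6.58 and 7.34. In Kupffer CD146 cultures of 3 days, replicate 2 had Tnf at 15.96, Tnfaip3 at 13.52 and Nfkbiz at 10.47, where the other arrays had Tnfaip3 at 10.67 and 10.68 and Nfkbiz at 7.53 and 7.68. In monocytic HGF cultures of 1 day, replicate 3 had Tnf at 13.86, Tnfaip3 at 13.52 and Nfkbiz at 11.10, where the other arrays had Tnfaip3 at 11.71 and 11.83 and Nfkbiz at 7.93 and 8.43. In Kupffer controls of 1 day, replicate 1 had Tnf at 14.87, Tnfaip3 at 13.61 and Nfkbiz at 9.27, where the other arrays had Tnfaip3 at 12.13 and 12.39 and Nfkbiz at 8.04 and 8.08. That array had less Tnfsf9 (6.09) and Tnfrsf9 (6.51) than the others of its group. Tnfsf9 was high on the 2 Kupffer arrays of 3 days (8.44 and 8.74) and lay within the range of its group on the monocytic one (7.62).

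Further genes of the pathway lists moved in places not described above. Timp3, an inhibitor of ADAM17, was lower in monocytic macrophages at 3 days with HGF, Ito and CD146 cells, at 3.88, 3.64 and 3.98 against 7.03 in controls (adjusted p = 4.58e-06, 1.35e-06 and 4.36e-05 in limma). In Kupffer cells of 3 days with Ito cells it was 4.61, against 8.50 in controls (adjusted p = 7.85e-09). All these Timp3 levels with an addition lay below the negative control means of their groups, so the sizes of the falls were not measured. Rela, the p65 subunit of NF-kB, was 13.20 in Kupffer cells of 3 days with Ito cells, against 14.60 in controls (adjusted p = 2.22e-06). Zfp36l2, a relative of tristetraprolin, was 13.91 in Kupffer cells of 3 days with CD146 cells, against 12.18 in controls (adjusted p = 8.05e-05). Tnfrsf26, another receptor of the superfamily, was 11.13 in Kupffer cells of 1 day with CD146 cells, against 12.56 in controls (adjusted p = 6.1e-05). These are single cases. Over the 12 addition comparisons Timp3 was called lower 6 times and Rela lower 5 times. Zfp36l2 was called higher 3 times and lower 2 times, and Tnfrsf26 higher 3 times and lower 3 times. The ligand genes Lta, Ltb, Cd40lg and Cd70 had group means of at most 6.57 in the cultures where an addition moved them, near the negative controls.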
